A study of Mus musculus with 6 samples.

Results

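The genes described are the chromatin modifiers and Polycomb readers of the array, chosen by symbol as the members of 10 families: Cbx, Brd, Ezh, Kmt, Setd, Hdac, Sirt, Kdm, Smarc and Chd. The rule went by symbol and used no measured value, but it was set with earlier results of these data known. It gave 47 genes out of 10698 with a single symbol, and 43 of them had a ratio on all 6 arrays, out of 8331 genes so measured. The cells were RAW 264.7, an immortal mouse macrophage line (part of the labels give the number with a different last digit). Treated cells received lipopolysaccharide (LPS, 100 ng/ml), an endotoxin of the bacterial outer membrane, together with the serum protein LBP (100 pM), which passes LPS on to its receptor, for 1 h, and untreated cells of the line were the control. Each array carried both RNAs, 3 with the treated RNA in Cy5 and the untreated RNA in Cy3 and 3 with the dyes exchanged, numbered as sets 1 to 3 in each orientation. No other agent or allele is named for either group, and the data come from 1 cell line at 1 time. Values are log2 ratios of treated over untreated RNA, so that 1 is a doubling. Means are over the 3 sets, after the arrays of both orientations in a set were averaged, and carry the SD over sets. Their direction is likely rather than stated: the Cy5 sample, called the test by the labels on every array, was taken as the numerator, and with the opposite numerator all signs would turn. Below, Cy5 arrays and Cy3 arrays are those with the treated RNA in that dye, given for sets 1, 2 and 3.

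Chromatin families act on histones in 4 ways. Writers add methyl groups, erasers take methyl or acetyl groups away, readers bind the marked histones and bring other complexes with them, and remodellers spend ATP to slide or eject nucleosomes. Polycomb complexes are a repressive branch of this system: PRC2 methylates histone H3 through Ezh1 or Ezh2, Cbx proteins of PRC1 bind that mark, and the Ring1 and Rnf2 subunits of PRC1 ubiquitinate histone H2A. In macrophages, acetylation readers, deacetylases and nucleosome remodelling take part in how fast LPS-induced genes are switched on.

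Promoter windows of the 3 members that were lower in treated RNA and of Kdm6a, which was higher, are shown first, since the results turn on the called genes. No window was found for Chd1, the member that rose most, and those of Brd2 are described without being printed. Each window is the 250 bases before an annotated RefSeq start on GRCm38.p6, written 5′ to 3′ along the gene, on the plus strand for Kdm6a and on the minus strand for the others. Capitals mark matches, on either strand, to the short motifs searched. Sirt3 has more than one listed start, and the windows of both are given.

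Cbx8, chr11:119040914-119041163: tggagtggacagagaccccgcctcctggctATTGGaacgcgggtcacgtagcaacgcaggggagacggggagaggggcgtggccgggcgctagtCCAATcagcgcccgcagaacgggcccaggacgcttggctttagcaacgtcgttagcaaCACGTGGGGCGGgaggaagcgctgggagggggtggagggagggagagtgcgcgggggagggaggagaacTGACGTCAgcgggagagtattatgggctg

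Cbx6, chr15:79834334-79834583: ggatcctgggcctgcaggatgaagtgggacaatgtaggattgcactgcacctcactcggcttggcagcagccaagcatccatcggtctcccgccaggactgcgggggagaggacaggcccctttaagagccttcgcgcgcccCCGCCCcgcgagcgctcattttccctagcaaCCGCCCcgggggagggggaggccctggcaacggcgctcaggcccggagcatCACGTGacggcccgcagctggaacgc

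Sirt3 first window, chr7:140882310-140882559: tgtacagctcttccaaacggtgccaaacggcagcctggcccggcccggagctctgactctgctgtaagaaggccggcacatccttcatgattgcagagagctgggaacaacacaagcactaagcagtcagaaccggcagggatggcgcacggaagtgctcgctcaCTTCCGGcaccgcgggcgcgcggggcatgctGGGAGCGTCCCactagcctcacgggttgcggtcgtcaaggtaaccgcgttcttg

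Sirt3 second window, chr7:140881870-140882119: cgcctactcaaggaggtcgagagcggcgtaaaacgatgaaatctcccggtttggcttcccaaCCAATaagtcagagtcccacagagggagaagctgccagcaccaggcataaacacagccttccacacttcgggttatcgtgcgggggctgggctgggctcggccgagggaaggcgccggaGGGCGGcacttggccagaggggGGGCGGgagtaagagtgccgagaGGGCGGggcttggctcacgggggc

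Kdm6a, chrX:18162325-18162574: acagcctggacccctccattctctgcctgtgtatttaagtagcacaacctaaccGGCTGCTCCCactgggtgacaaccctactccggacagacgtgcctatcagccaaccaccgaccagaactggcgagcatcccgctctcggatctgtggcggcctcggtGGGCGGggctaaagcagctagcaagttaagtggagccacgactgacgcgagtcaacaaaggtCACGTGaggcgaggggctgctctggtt

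The Cbx8 window holds the palindromic cyclic AMP response element TGACGTCA, beginning at position -29 from the start. That element is present in 1.55% of 32851 such windows, taken from 27025 RefSeq genes whether or not the array measured them. It is in 1 of the 47 windows found for 35 of the 43 measured members, which is the one of Cbx8. The same window holds an E box (CACGTG, in 6.02% of all windows), which abuts a GC box (GGGCGG, in 32.7%), and a pair of CCAAT boxes (CCAAT, in 33.8%). In the Cbx6 window an E box begins at position -26, and GC boxes lie further upstream. The first Sirt3 window has overlapping matches to the NF-kappaB pattern (GGGA, any 4 bases, then CC), which is in 17.6% of all windows and in 13 of the members' 47, and an Ets match (CCGGAAG, in 6.91% of all). Its second window has 3 GC boxes and a CCAAT box. The Kdm6a window holds the same kinds of match, with the NF-kappaB pattern at -196, a GC box at -89 and an E box at -27. Brd2, also higher, has 3 listed windows, of which one holds the NF-kappaB pattern at -227 and a GC box at -96, one an Ets match at -203 and an Nrf1 match at -17, and one no match. The other patterns searched were the TATA box (TATAAA), the AP-1 pattern (TGA, any base, TCA) and those of Nrf1 (GCGCA joined to TGCGC) and YY1 (AAGAT joined to GGCGGC), in 12.4%, 6.75%, 0.782% and 0.207% of all windows, and the windows printed held none of them. The members' windows had a median of 62.4% G and C and 20 CpG dinucleotides, against 52.4% and 6 over all windows. GC boxes were in 68.1% of the members' windows. No comparison was made with the windows of other genes measured on the array, so these differences may not be particular to the members. A match is a run of letters and does not show that a factor binds there.

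After 1 h with LPS and LBP most of these genes differed little between treated and untreated RNA, and a few moved clearly. Of the 43 measured members, 3 rose (Chd1, Brd2 and Kdm6a) and 3 fell (Cbx8, Sirt3 and Cbx6), tested with limma at a Benjamini-Hochberg adjusted p under 0.05 over all genes. Together they are 14.0% of the members, beside a background of 13.2% of all genes tested (6.96% higher and 6.21% lower), so the share called was near that of the array. At an unadjusted p under 0.05 the shares were 32.6% of the members and 27.0% of all genes. The median absolute mean ratio was 0.08 for the members and 0.07 for all genes, and the median signed mean was 0.02 and -0.01. Calls were spread over readers (1 higher, 2 lower of 9), erasers (1 higher, 1 lower of 16) and remodellers (1 higher, 0 lower of 11), and 0 were among the 7 writers. The 37 members not called had 95% intervals that reached no further than -0.40 and 0.39, or 1.32-fold at the widest. Each interval is for a single gene and is not adjusted for the number of genes, so larger differences are not excluded. Means were within 0.1 of 0 for 24 of the 37. A fit of the 6 single arrays with a term for the dye, which ignores the set numbers, called 11 members (5 higher, 6 lower), beside 17.3% of all genes, and these included the 6 above. The additional 5, Ezh2, Brd7, Brd3, Kmt2b and Setdb1, are given with their values under each family. With the sets added as a block the same fit called 10 members, without Setdb1, beside 1340 of the 8331 genes. No label states that the sets came from separate cultures. The p-values therefore rest on the spread of these arrays, and that spread may be technical.

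**Figure D1:**
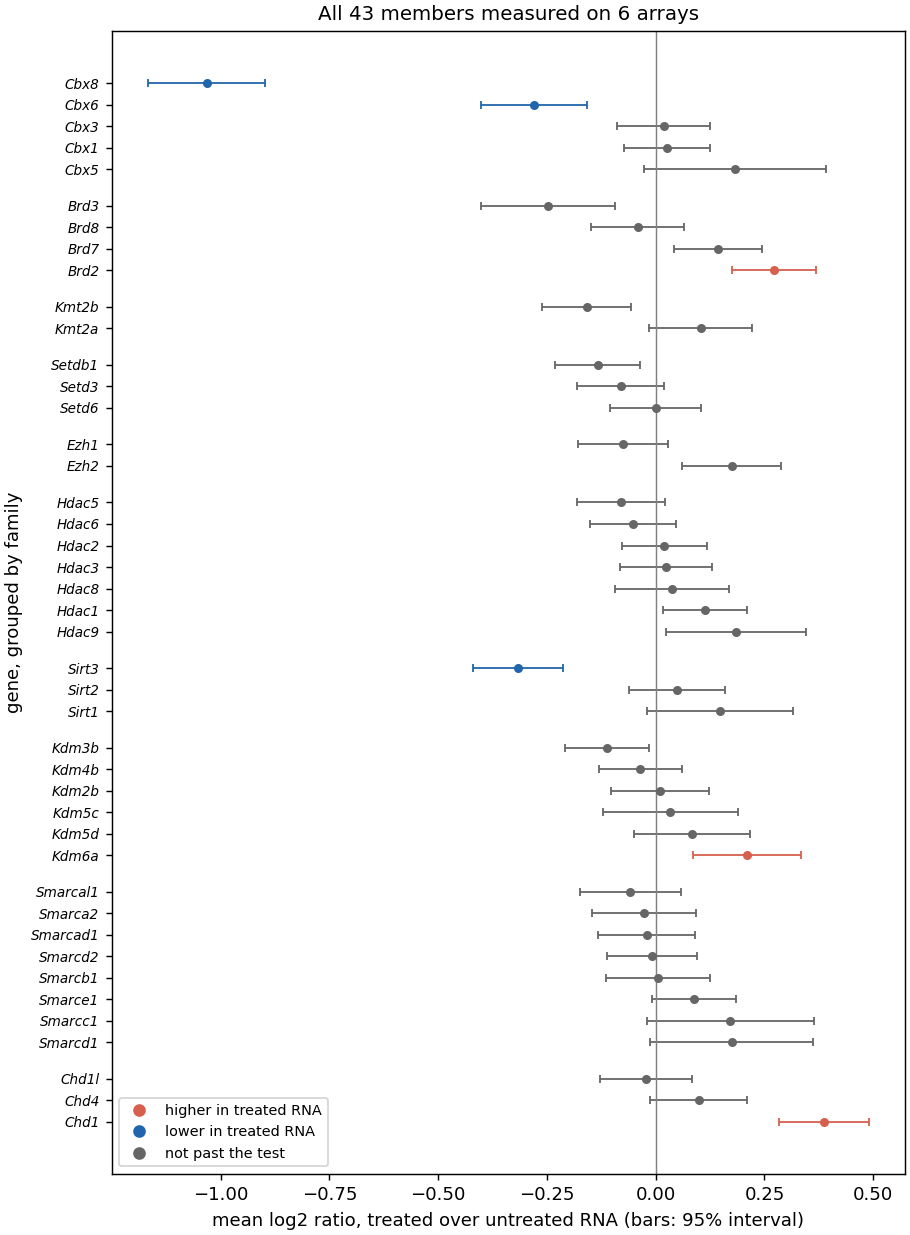
Mean log2 ratio of treated over untreated RNA (horizontal axis) of the 43 members with a ratio on all 6 arrays, grouped by family down the page. Bars are 95% intervals from the limma fit of 3 set averages. Cbx8 stands apart at -1.03, and the 37 members in grey have intervals between -0.40 and 0.39.

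Cbx8 encodes a chromodomain protein of PRC1 that binds the methyl mark left by PRC2. Its ratios were -0.97, -0.93 and -1.17 on the Cy5 arrays and -1.05, -0.93 and -1.15 on the Cy3 arrays. All arrays were low, and the orientations overlapped almost completely, with means of -1.02 and -1.04. It fell by 1.03 ± 0.12 (SD, n = 3 sets), which is 2.04-fold (limma, adjusted p = 0.000139, 95% interval -1.17 to -0.90). Cbx8 was the member of largest change, the only one past 2-fold, where 1.06% of all genes lay, and had rank 7 from the lowest mean of the 8331 genes. It passed the test under each of the 12 alternatives run, with means between -1.14 and -0.97. All of these values came from 1 probe, as did those of each other called member except Cbx6.

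Cbx6, a close relative that can take the same place in PRC1, had ratios of -0.31, -0.47 and -0.23 on the Cy5 arrays and -0.20, -0.30 and -0.17 on the Cy3 arrays. Every array was below 0, with the Cy5 arrays on average lower than the Cy3 arrays. It fell by 0.28 ± 0.09 (limma, adjusted p = 0.0162). Its probes did not give the same value: one averaged -0.34 and passed the test by itself, and the other averaged -0.22 and did not (limma, adjusted p = 0.0698). The passing probe ranged from -0.70 to -0.44 on the Cy5 arrays and from -0.20 to -0.08 on the Cy3 arrays. The other leaned the opposite way, from -0.24 to -0.02 on the Cy5 arrays and from -0.44 to -0.15 on the Cy3 arrays. Without set 1 the mean was -0.29 and the adjusted p was 0.0953, and the Cy3 arrays alone gave -0.22 without a call, as did zeros kept as ratios at -0.28 (adjusted p = 0.0821). Cbx2, another PRC1 reader, was measured on 5 arrays, with ratios from -0.55 to 0.09 that spanned 0, and it was not tested in the same fit.

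The heterochromatin (HP1) readers Cbx1, Cbx3 and Cbx5 bind a different methyl mark and are not Polycomb proteins. Cbx1 averaged 0.03 ± 0.03 and Cbx3 averaged 0.02 ± 0.06, and neither passed the test (limma, adjusted p = 0.73 and 0.824). For Cbx5 the sets disagreed, with ratios of 0.48 and 0.39 in set 2, 0.14 and 0.11 in set 3, and -0.01 and -0.02 in set 1, in Cy5 and Cy3 order. The arrays of a set lay close together for this gene while the sets lay apart, and its mean of 0.18 ± 0.23 was not called.

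**Figure D2:**
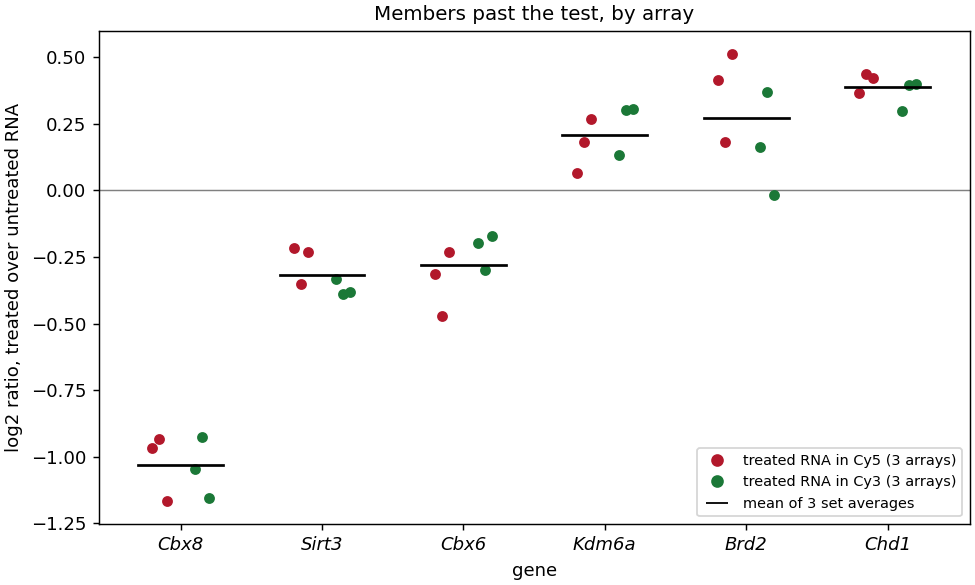
Log2 ratio of treated over untreated RNA (vertical axis) on each of the 6 arrays for the 6 members past the test, with red points for treated RNA in Cy5 and green points for treated RNA in Cy3, and a bar at the mean of the set averages. All 6 points of Cbx8 lie between -1.17 and -0.93, while those of Brd2 run from -0.02 to 0.51.

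Among bromodomain genes, whose proteins read acetylated lysines, Brd2 rose and its relative Brd3 had a mean on the other side of 0. Brd2, a BET protein that recruits transcription factors to acetylated chromatin, had ratios of 0.42, 0.18 and 0.51 on the Cy5 arrays and 0.16, 0.37 and -0.02 on the Cy3 arrays. One array was at about 0 and the others were above it. Brd2 rose by 0.27 ± 0.02, or 1.21-fold (limma, adjusted p = 0.00772). Each set joined a higher and a lower array, which left the averages close. The SD over the 6 single arrays was 0.20, and the single-array fit gave an adjusted p of 0.0274. Without set 1 the adjusted p was 0.078 at a mean of 0.26, and the Cy3 arrays alone gave 0.17 without a call.

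Brd3, another BET protein, averaged -0.25 ± 0.15 (adjusted p = 0.0546), with -0.09 and -0.05 in set 3 and values between -0.42 and -0.24 in sets 1 and 2. Without set 3 it passed at -0.33 (limma, adjusted p = 0.0121), and it also passed in the single-array fit (adjusted p = 0.0272). Brd7, a subunit of a SWI/SNF remodelling complex, was above 0 on all 6 arrays, from 0.01 to 0.30, and averaged 0.14 ± 0.04 (adjusted p = 0.0768, and 0.0337 in the single-array fit). Brd8, of an acetyltransferase complex, averaged -0.04 ± 0.06.

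Of the 7 writers limma called 0 on set averages, with 3 at an unadjusted p under 0.05 (27.0% of all genes were) and 3 called in the single-array fit (Ezh2, Kmt2b and Setdb1). Ezh2, the main catalytic subunit of PRC2 in dividing cells, was above 0 on every array, with 0.11, 0.15 and 0.11 on the Cy5 arrays and 0.14, 0.37 and 0.17 on the Cy3 arrays. Its mean was 0.17 ± 0.08 (limma, adjusted p = 0.0622, and 0.027 in the single-array fit). Ezh1, its counterpart in resting cells, averaged -0.07 ± 0.05, with 0.08 in the Cy5 orientation and -0.23 in Cy3. Kmt2b, which methylates histone H3 at promoters, lay below 0 on all arrays, from -0.24 to -0.09, at a mean of -0.16 ± 0.05 (adjusted p = 0.0607, and 0.018 in the single-array fit). Its relative Kmt2a averaged 0.10 ± 0.09. Setdb1, which writes a silencing mark on retroelements, averaged -0.13 ± 0.03 with all 6 arrays below 0 (limma, adjusted p = 0.0872). The single-array fit gave 0.0453, and 0.0564 with the sets as a block, which ended the call. Setd3, an actin methyltransferase, averaged -0.08 ± 0.04, and Setd6 was at about 0, with arrays from -0.41 to 0.47.

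Among erasers, Sirt3 was the member that fell. Sirt3 encodes the main protein deacetylase of mitochondria and so acts mostly away from chromatin. Its ratios were -0.21, -0.35 and -0.23 on the Cy5 arrays and -0.33, -0.39 and -0.38 on the Cy3 arrays, all below 0. The fall was 0.32 ± 0.05, or 1.25-fold (limma, adjusted p = 0.00541), and it passed under each of the 12 alternatives run, with means between -0.37 and -0.26. Sirt1, a nuclear deacetylase, averaged 0.15 ± 0.17 and was not called, with -0.06 in the Cy5 orientation and 0.35 in Cy3. Sirt2, a mainly cytoplasmic one, averaged 0.05 ± 0.07, with -0.09 in the Cy5 orientation and 0.19 in Cy3.

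Of the 7 measured histone deacetylase genes limma called 0, with 2 at an unadjusted p under 0.05 (27.0% of all genes were) and 0 called in the single-array fit, and their means lay between -0.08 and 0.19. The class I genes that work in corepressor complexes were close to 0, at 0.11 ± 0.02 for Hdac1, 0.02 ± 0.03 for Hdac2 and 0.02 ± 0.06 for Hdac3, whose 3 probes averaged 0.05, 0.01 and 0.02. Hdac1 was nearest to a call, above 0 on all 6 arrays (limma, adjusted p = 0.13, and 0.0536 in the single-array fit). Hdac9, a signal-responsive deacetylase, had the highest mean at 0.19 ± 0.16, with -0.01 and 0.01 in set 1 and values from 0.12 to 0.41 in sets 2 and 3. Its class mate Hdac5 averaged -0.08 ± 0.04. Hdac6, a cytoplasmic tubulin deacetylase, and Hdac8 averaged -0.05 and 0.04. Hdac7 was measured on 5 arrays, with ratios from -0.24 to 0.54 on both sides of 0.

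Lysine demethylases gave a single call among 6 measured genes, beside 13.2% of all genes. Kdm6a, which removes the mark written by Ezh1 and Ezh2 and so works against Polycomb, had ratios of 0.07, 0.18 and 0.27 on the Cy5 arrays and 0.13, 0.30 and 0.31 on the Cy3 arrays. All were above 0, and set 1 was the lowest in both orientations. Kdm6a rose by 0.21 ± 0.10, or 1.16-fold, just past the threshold (limma, adjusted p = 0.0473). With set 1, 2 or 3 left out the mean was 0.26, 0.19 or 0.17 and the test was not passed, nor was it with either orientation alone (0.17 in Cy5 and 0.25 in Cy3), with zeros kept as ratios or with incomplete probes included. Kdm3b, which removes a silencing methyl mark, averaged -0.11 ± 0.02 with all arrays below 0 (adjusted p = 0.13). Kdm2b, which brings a form of PRC1 to CpG islands, averaged 0.01 ± 0.07, Kdm4b averaged -0.03 ± 0.01 and Kdm5d averaged 0.08 ± 0.12.

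Among remodellers, Chd1 rose most of all members. Its protein binds methylated histone H3 at active genes and helps the polymerase past nucleosomes. The ratios were 0.37, 0.44 and 0.42 on the Cy5 arrays and 0.30, 0.39 and 0.40 on the Cy3 arrays, a narrow range well above 0. Chd1 rose by 0.39 ± 0.05, or 1.31-fold (limma, adjusted p = 0.00252), and passed under each of the 12 alternatives run, with means between 0.36 and 0.41. For scale, the median rise among all genes called higher was 0.34.

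Chd4, the ATPase of the NuRD corepressor, gave opposite signs in the orientations, with 0.33, 0.27 and 0.48 on the Cy5 arrays and -0.19, -0.17 and -0.12 on the Cy3 arrays. The orientations did not overlap, and the mean of 0.10 ± 0.07 was not called (limma, adjusted p = 0.23). A term for the dye in the single-array fit passed for Chd4 (limma, adjusted p = 0.034), the only member for which it did, beside 3.32% of all genes. The dye test on set averages called 0 members and 5 genes in all. It had 8 members at an unadjusted p under 0.05, and the share of all genes at that p is not given here. Read from the Cy5 arrays alone, Chd4 would have been called higher at 0.36 (adjusted p = 0.03). Signs were opposite on all arrays of the orientations for 5 members, or 11.6%, beside 13.7% of all genes. Kdm5c, an X-linked demethylase, showed a gap of the same size, with means of 0.30 in Cy5 and -0.23 in Cy3. Chd1l, which remodels nucleosomes at DNA damage, averaged -0.02, with 0.06 in Cy5 and -0.10 in Cy3.

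**Figure D3:**
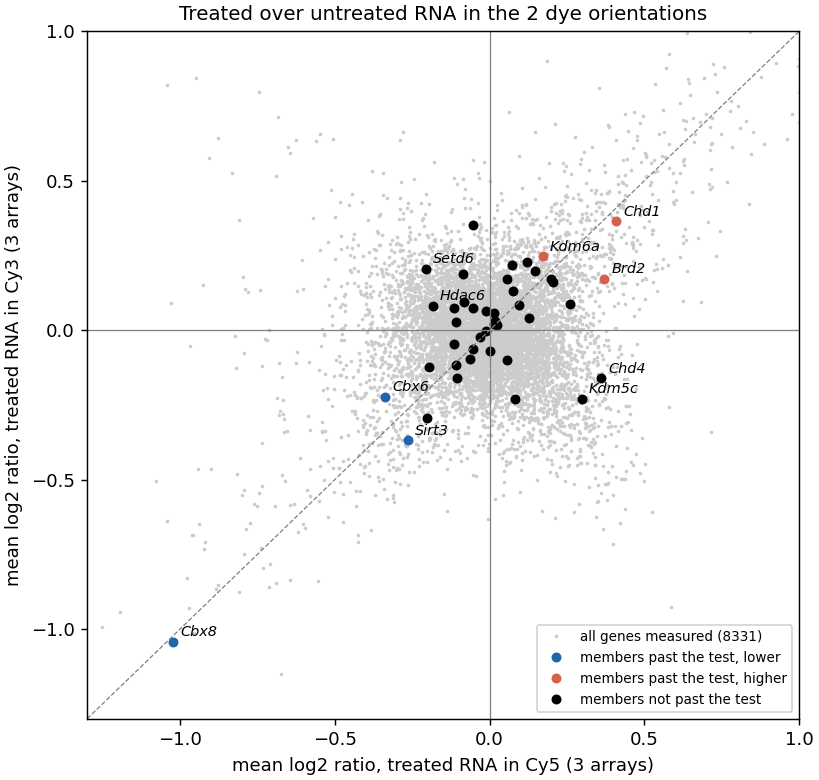
Mean log2 ratio of treated over untreated RNA on the 3 Cy5 arrays (horizontal axis) against the 3 Cy3 arrays (vertical axis), for all 8331 genes in grey and the 43 members in colour or black. Both axes are limited to -1.3 to 1, so genes beyond are not drawn. Cbx8 lies near the dashed line of equal ratios at -1.02 and -1.04, and Chd4 and Kdm5c lie in the quadrant of opposite signs.

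The Smarc genes encode subunits of SWI/SNF and related remodellers, and their means ran from -0.06 to 0.17. Limma called 0 of the 8 measured in either fit, beside 13.2% (set averages) and 17.3% (single arrays) of all genes. At an unadjusted p under 0.05 the count was 0, beside 27.0% of all genes. These counts over 8 genes were not tested against those shares. Smarcc1 and Smarcd1, core subunits, had the highest means, at 0.17 ± 0.21 and 0.17 ± 0.20. Both were highest in set 3 in each orientation, where Smarcc1 read 0.39 and 0.41 and Smarcd1 read 0.46 and 0.34 with treated RNA in Cy5 and in Cy3. Outside set 3, Smarcc1 lay between -0.02 and 0.21 and Smarcd1 between -0.16 and 0.18. The ATPase gene Smarca2 averaged -0.03 ± 0.09, and Smarcd2 averaged -0.01 ± 0.05 over 3 probes of differing sign. Smarce1, Smarcb1, Smarcad1 and Smarcal1 averaged 0.09, 0.01, -0.02 and -0.06. Smarcd3 was measured on 4 arrays, from -0.10 to -0.05, and Smarca5, an ISWI ATPase, on 1 array, at 0.11.

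Within the Polycomb system the PRC1 readers Cbx8 and Cbx6 fell, and 4 other subunits or cofactors rose. Of 33 further Polycomb genes listed, 19 were measured on all arrays, and 4 of them rose and 0 fell. Over all genes 6.96% were called higher and 6.21% lower. The median mean ratio of the 19 was 0.07, beside -0.01 for all genes. Rnf2, the catalytic ubiquitin ligase of PRC1, rose by 0.40 ± 0.08 (limma, adjusted p = 0.0037), with 0.34, 0.60 and 0.41 on the Cy5 arrays and 0.30, 0.38 and 0.36 on the Cy3 arrays, all above 0. Aebp2, a PRC2 cofactor that helps it bind nucleosomes, rose by 0.38 ± 0.05, with a range of 0.27 to 0.44 over the arrays. Mtf2, which tethers PRC2 to CpG-rich DNA, rose by 0.31 ± 0.05, from 0.17 to 0.50. Pcgf5, a subunit of a PRC1 form without Cbx proteins, rose by 0.24 ± 0.07 and was named after its values were seen. Leaving out set 1 (0.27) or set 3 (0.20), taking the Cy3 arrays alone (0.13) or keeping zeros as ratios (0.24) each ended its call. Mtf2 lost its call on the Cy5 arrays alone (0.21).

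Grouped by complex after the values were seen, 7 of 8 measured PRC2 genes had means above 0, with 2 called higher and 0 lower. Of 14 PRC1 genes 8 had means above 0, with 2 called higher and 2 lower. Over all genes 6.96% were called higher and 6.21% lower. The median mean of all genes was -0.01, so fewer genes had means above 0 than below. These counts were not tested against the other genes. The PRC2 core genes other than Ezh1 and Ezh2 were not called, with 0.16 ± 0.10 for Suz12 and 0.10 ± 0.03 for Eed. The orientations differed for both, with 0.32 in Cy5 and 0.01 in Cy3 for Suz12 and -0.02 and 0.22 for Eed. They also differed for Phf1, another PRC2 gene, at 0.21 in Cy5 and -0.07 in Cy3. Aebp2, Mtf2, Ezh2 and Jarid2 were above 0 on all 6 arrays. Jarid2, a PRC2 cofactor, averaged 0.17 ± 0.04 at the edge of the threshold (adjusted p = 0.0503, and 0.0321 in the single-array fit). Bmi1, a PRC1 subunit, ranged from -0.68 to 0.22 and averaged -0.20 ± 0.30 (adjusted p = 0.283). No test compared the complexes with each other. The RNA levels say nothing of how much protein was in either complex.

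**Figure D4:**
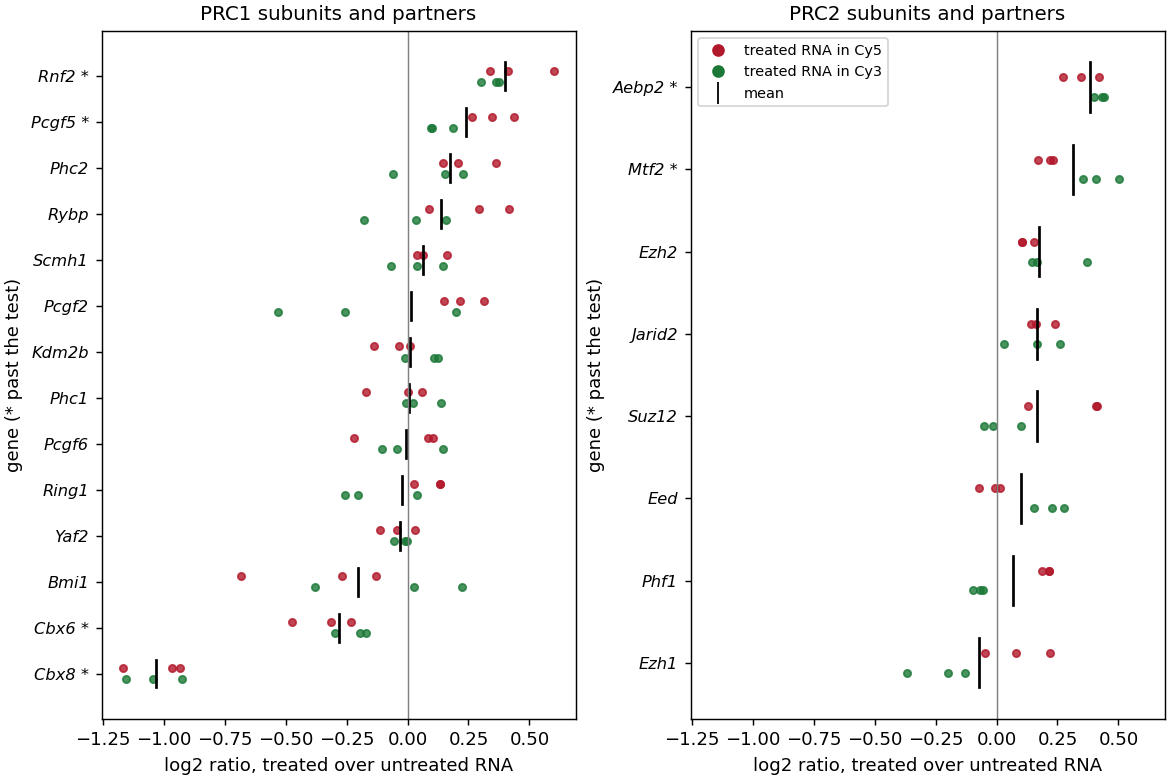
Log2 ratio of treated over untreated RNA (horizontal axis) on each of the 6 arrays for the measured genes of PRC1 (left) and PRC2 (right), ordered by their mean, which the black bar marks, with red points for treated RNA in Cy5 and green points for treated RNA in Cy3. Asterisks mark genes past the test: Rnf2, Pcgf5, Aebp2 and Mtf2 are higher in treated RNA and Cbx6 and Cbx8 lower.

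Other chromatin regulators were taken from 7 further lists. Over these and the Polycomb list, 7 of 89 measured genes rose and 2 fell, or 10.1%, near the background of 13.2% of all genes. Riox1, a nucleolar Jumonji-domain oxygenase, fell by 0.56 ± 0.07 (limma, adjusted p = 0.000835), with ratios from -0.75 to -0.41, and was the only call of 6 measured genes in its list. Ino80, the ATPase of its own remodelling complex, rose by 0.40 ± 0.12, the only call among 7 other remodellers, with 0.43, 0.68 and 0.62 on the Cy5 arrays and 0.16, 0.06 and 0.43 on the Cy3 arrays. The call ended on the Cy3 arrays alone (0.22) and with zeros kept as ratios (0.40). Of 15 measured methyltransferase and COMPASS genes, Suv39h2, a heterochromatin writer, fell by 0.25 ± 0.11 and Smyd1, known from muscle, rose by 0.26 ± 0.03. The call of Suv39h2 ended when set 1 (-0.19) or set 3 (-0.26) was left out, with either orientation alone (-0.28 in Cy5 and -0.21 in Cy3) and with zeros kept (-0.25). Smyd1 averaged -0.05 on the Cy5 arrays, without a call, and 0.57 on the Cy3 arrays. Its call also ended without set 1 (0.24) and with zeros kept (0.19), and in the single-array fit with the sets as a block (limma, adjusted p = 0.0528). Mbd1, a reader of methylated DNA, rose by 0.23 ± 0.11 among 8 genes of DNA methylation, without a call when set 1 (0.25) or set 3 (0.16) was left out, with either orientation alone (0.24 in Cy5 and 0.21 in Cy3), with zeros kept (0.23), with incomplete probes included (0.23) or with arrays centred on their medians (0.22). Limma called 0 of 8 acetyltransferase genes, 0 of 16 HDAC corepressor genes and 0 of 10 other SWI/SNF genes, whose median absolute means were 0.10, 0.06 and 0.05. At an unadjusted p under 0.05 these counts were 3, 4 and 2, beside 27.0% of all genes, and the single-array fit called 2, 1 and 2.

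As a check of the direction and of the response, all 7 genes fixed for that purpose rose: Egr1 by 5.13, Il1b by 2.54, Tnf by 2.44, Ccl4 by 2.40, Ier3 by 1.78, Tnfaip3 by 1.70 and Ptgs2 by 1.16. Cbx8 changed about as much as Ptgs2 in size, in the other direction. Ratios carry no level, so the cell type could not be checked by abundance. Of 12 macrophage markers, 11 had a ratio on all arrays and 1 of them, Adgre1, rose (0.55 ± 0.11). Of 10 lymphocyte markers 7 were measured, and Cd4 (0.47 ± 0.21) and Cd79a (0.20 ± 0.06) rose. The call of Cd4 ended without set 1 (0.52), on the Cy3 arrays alone (0.30) and with zeros kept (0.14). That of Cd79a ended with any of the sets left out (0.17 to 0.24), with either orientation alone and with zeros kept. It also ended in the single-array fit with the sets as a block (limma, adjusted p = 0.061). Only 3 of 10 fibroblast and epithelial markers had a ratio on all arrays, and limma called 0 of them in either fit. At an unadjusted p under 0.05 there were 0, beside 27.0% of all genes. Their part in the values above was not tested.

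**Figure D5:**
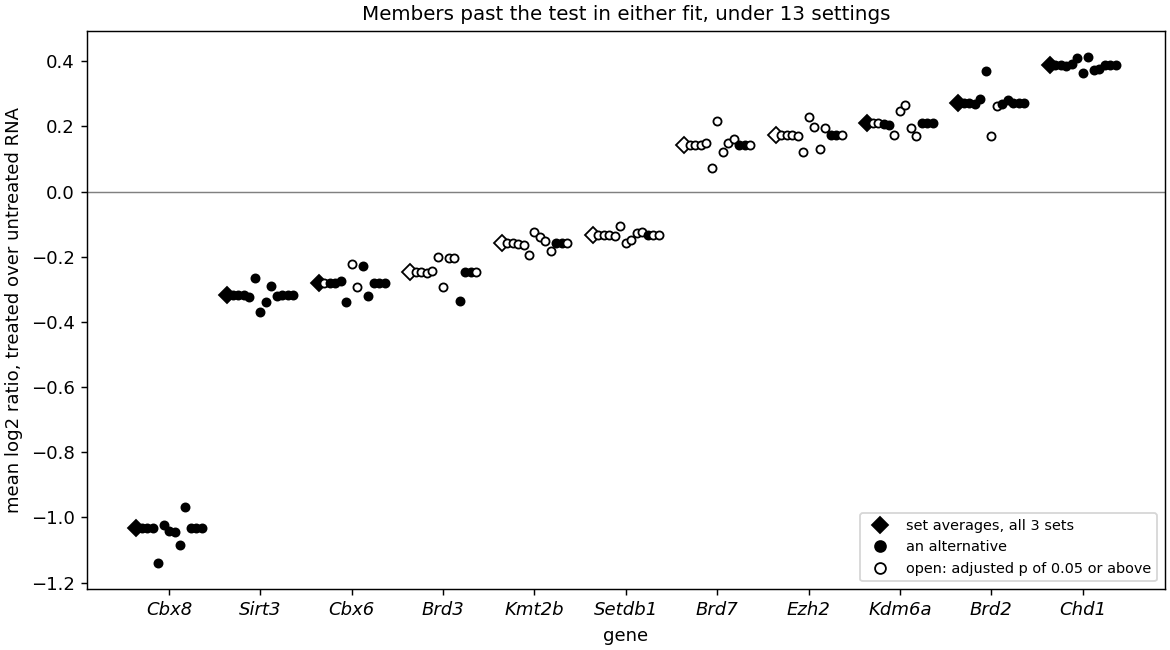
Mean log2 ratio of treated over untreated RNA (vertical axis) for the 11 members past the test in the set-average or the single-array fit, with a diamond for the set averages and a circle for each of the 12 alternatives, filled where the adjusted p was under 0.05. Cbx8, Sirt3 and Chd1 have filled symbols throughout, and those of Kdm6a are mostly open.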

How the data were processed

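Total RNA was hybridised on 6 dual-channel arrays. The authors deposited 1 log2 ratio per probe and array (16281 probes). Base 2 was read from the values, since at least 99.95% of non-zero values on each array are 6-digit log10 numbers divided by log10 of 2 (relative tolerance 1e-12). The scanner, background correction, normalization and centring are not given in the sources used here. Array medians were 0.0043 to 0.0159 before turning. An exact 0 (8.99% to 23.9% of an array) was taken as no ratio. No intensities were used, and precision is limited by having few arrays.

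The 3 Cy3 arrays had their sign turned. The platform annotation named 13738 probes with 1 symbol and 52 with several, 2491 had none, and a RefSeq table (GRCm38.p6) matched 13694 and changed 0 symbols. A probe listed under both Ss18 and Chd1l was left out. Complete probes (a ratio on each of the 6 arrays) were combined to a mean per symbol. Several such probes were joined for 4 of the 43 measured members. Then both arrays of a set were averaged, and limma 3.58.1 in R 4.3.3 (lmFit and eBayes) tested the 3 set values against 0, two-sided, with residual df of 2 and prior df of 4.08. Adjustment was over 8331 genes by Benjamini-Hochberg. The fit was tested on simulated data.

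Members and lists were chosen with earlier results of these data known. Named were every member called, the 2 of largest absolute mean in each family, 17 members fixed by name, up to 3 called genes of each of 8 chromatin lists and 7 check genes. Of those fixed by name, 5 were not analysed here. Other members, Pcgf5, Jarid2, Suz12, Eed, Phf1, Bmi1 and the called markers were named after their values were seen. The 12 alternatives concern zeros, incomplete probes, scaling, orientation, each set, probe averaging and the 6 single arrays, and unless said otherwise a call is from the set averages.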

Additional observations from a re-analysis of the deposited data

Results flagged for a closer look

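Ezh2 was marked for 1 array far from the others. The array of set 2 with treated RNA in Cy3 gave 0.37, and the other 5 lay between 0.11 and 0.17. Its gap to the nearest array was 0.764 of the range, above Dixon's critical value for 6 values. Ezh2 did not pass with all 3 sets (limma, mean 0.17, adjusted p = 0.0622), nor without set 2 (0.13, adjusted p = 0.223). It also did not pass without set 1 (limma, 0.20, adjusted p = 0.174) or set 3 (0.19, adjusted p = 0.105). Of 43 members tested, chance alone marks about 1 in 20.

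A further 5 members were marked because every array of one orientation lay on one side of 0 and every array of the other on the opposite side. The difference of the orientation means, treated RNA in Cy5 minus treated RNA in Cy3, was 0.52 for Chd4 and 0.53 for Kdm5c. It was 0.16 for Chd1l, -0.27 for Hdac6 and -0.41 for Setd6. The dye term of the single-array fit, which tests this difference, passed for Chd4 (limma, adjusted p = 0.034) and not for Kdm5c (adjusted p = 0.0539), Hdac6 (adjusted p = 0.0738), Setd6 (adjusted p = 0.121) or Chd1l (adjusted p = 0.188).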

How the results depend on the processing

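Cbx8, Sirt3 and Chd1, each read from 1 probe, kept their direction and their call under all 12 alternatives. Of the 23 named members, 12 of their values under an alternative lost the call, 9 gained it and 4 changed sign, while 251 did neither. The members called (6) were 3 with treated RNA in Cy3 alone, 11 with the 6 single arrays and a dye term without the replicate block, and 10 with the replicate block. With that block Setdb1 (adjusted p = 0.0564, limma), Smyd1 (0.0528) and Cd79a (0.061) lost the call they had without it. With a set left out they ranged from 3 (without set 1) to 6. Arrays with the same set number had residual correlations of -0.0077, -0.281 and -0.0943. The replicate block used a correlation within sets of 0.0825. With so few arrays these values cannot decide whether a shared number was a pairing. All genes called (1097) were 522 with zeros kept as ratios, 649 with treated RNA in Cy3 alone and 499 to 832 with a set left out, lowest without set 1. The dye effect was called for 5 genes on set averages, 0 to 24 with a set left out and 277 in the single-array fit, the last chosen after seeing the data. Among the genes followed singly, signs changed without a call for Chd4 (-0.16), Kdm5c (-0.23), Hdac6 (0.082) and Setd6 (0.21) with treated RNA in Cy3 alone. In Cy5 alone they changed for Ezh1 (0.083), Sirt1 (-0.055), Smyd1 (-0.054), Eed (-0.021) and Chd1l (0.057). Other members also changed sign, among them Sirt2 (-0.087), Smarcb1 (-0.084), Kdm2b (-0.055) and Cbx1 (-0.012) in Cy5 alone. Brd8 (0.028) and Smarcad1 (0.073) did so in Cy3 alone. Setd6 also changed sign after quantile normalization (0.0028). With a set left out, Setd6 ranged from -0.017 to 0.032, Hdac3 from -0.0082 to 0.048, Chd1l from -0.052 to 0.00086 and Kdm5c from -0.050 to 0.099. The cause was not tested. Signal over background is unknown, which limits values near 0.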
